A study of Homo sapiens with 9 samples.

Results

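Acid ceramidase, the enzyme encoded by ASAH1, releases sphingosine from ceramide, and 9 other genes act beside it or directly downstream of it: the alkaline ceramidases ACER2 and ACER3, the sphingosine kinases SPHK1 and SPHK2, the sphingosine-1-phosphate (S1P) phosphatase SGPP1, the S1P lyase SGPL1, the S1P exporter SPNS2 and the S1P receptors S1PR2 and S1PR3. These 10 genes, of 26485 listed, were chosen by name, and all 10 passed the filter on low values in each comparison. The cells were MDA-MB-231, a human cell line of triple-negative breast cancer that was grown in DMEM with 10% fetal bovine serum. For RNA sequencing, 3 biological replicates expressed a nonspecific (NS) shRNA, a short hairpin RNA that served as the control, 3 expressed ASAH1 shRNA #1 and another 3 ASAH1 shRNA #2, giving 9 libraries. The cells of each group expressed their hairpin stably. The series holds 1 nonspecific hairpin, so a change against it was measured with 1 control construct, and whether each group was a pool or a single clone was not given in the sources used here. Each hairpin was compared with NS shRNA on normalized counts, which are reads on a gene divided by the size factor of the library. Both comparisons used the same 3 NS shRNA libraries, scaled separately in each, so the calls of one were not independent of those of the other.

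Ceramide, sphingosine and S1P are interconverted by short chains of enzymes. Ceramidases cut ceramide to sphingosine, sphingosine kinases phosphorylate it to S1P, S1P phosphatases return S1P to sphingosine, and the lyase degrades it irreversibly. S1P leaves cells through SPNS2 and acts on a family of G protein-coupled receptors that bear on migration, survival and the cytoskeleton, whereas ceramide is best known for its part in growth arrest and cell death.

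Reads on genes ranged from 30989598 to 34867548 per library with NS shRNA, from 23806003 to 39791698 with shRNA #1 and from 35653318 to 49659106 with shRNA #2. The mesenchymal genes VIM, CD44, CAV1 and AXL held between 18696 and 72608 reads in each library, and the receptor genes ESR1 and PGR held at most 2. In contrast, GATA3, a luminal factor listed as low in this line, held 401 to 1195 reads, which went against the marker list. The leukocyte marker PTPRC and the hepatocyte marker ALB held at most 8 and 4 reads, and the endothelial marker PECAM1 39 to 102. The NS shRNA libraries had the higher PECAM1 and PTPRC means in both comparisons, and the part of these levels in any result below was not tested.

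The target was measured first. ASAH1 (chromosome 8, positions 18055992 to 18084998 of hg38, minus strand) read 4436, 4512 and 4518 normalized counts with NS shRNA and 1268, 1365 and 1348 with shRNA #1. On the scale of the other table it read 4787, 4898 and 4871 with NS shRNA and 780, 807 and 762 with shRNA #2. All knockdown libraries lay far below all NS shRNA libraries, and the spread within each group was small. ASAH1 was left at 29.6% of NS shRNA with shRNA #1 (log2 fold change -1.76, SE 0.05, limma adjusted p = 9.49e-09) and at 16.1% with shRNA #2 (-2.63, SE 0.06, limma adjusted p = 5.42e-10). In bulk RNA, fewer cells with a transcript and less of it per cell cannot be told apart.

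**Figure D1:**
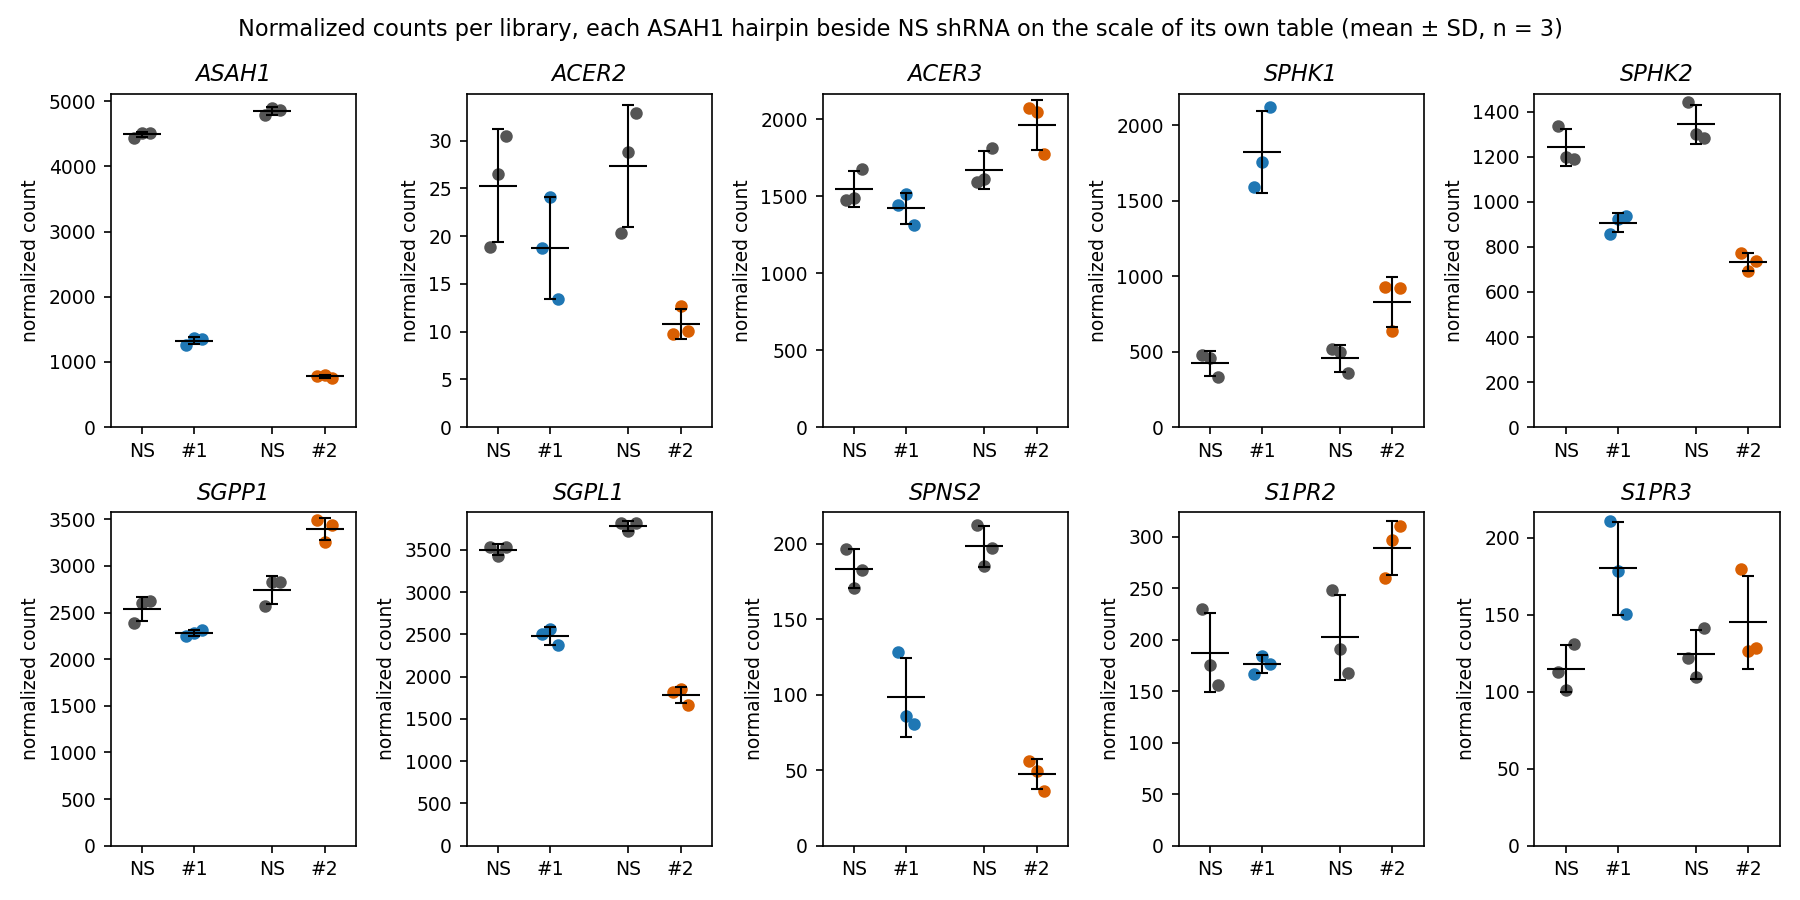
Normalized counts (y axis, linear, from 0) of the 10 genes in each library (points), with mean ± SD (n = 3), for NS shRNA (grey) and ASAH1 shRNA #1 (blue) or #2 (orange). SPHK1 was above NS shRNA and ASAH1, SPHK2, SGPL1 and SPNS2 were below it in all libraries of both hairpins, whereas SGPP1 was below NS shRNA with shRNA #1 and above it with shRNA #2.

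Of the 10 genes, 7 passed the test with shRNA #1, 2 higher and 5 lower, and 9 passed with shRNA #2, 4 higher and 5 lower. Both hairpins changed most of the transcriptome: 66.1% of 14341 genes tested were called with shRNA #1, 32.8% higher and 33.3% lower, and 66.9% of 14250 with shRNA #2, 33.5% higher and 33.4% lower. The 7 called with shRNA #1 were close to that background share and the 9 called with shRNA #2 were above it, and with 10 genes chosen with results known neither count is a result about them. The 2 groups did not overlap for 7 of the 10 genes with shRNA #1 and for 8 with shRNA #2, against 69.2% and 70% of all genes tested. The median log2 fold change of the 10 genes was -0.29 with shRNA #1 and -0.33 with shRNA #2, against 0.0013 and 0.013 over all genes. The counts and medians include ASAH1, the target of the hairpins. The medians, like the counts, are no result about the 10 genes. ASAH1, SPHK2, SGPL1 and SPNS2 fell with both hairpins, SPHK1 rose with both and SGPP1 moved in opposite directions. The remaining 4 genes passed with 1 hairpin: S1PR3 rose with shRNA #1, and with shRNA #2 ACER3 and S1PR2 rose and ACER2 fell.

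Neither alkaline ceramidase changed by as much as ASAH1 in its own comparison. ACER3 (chromosome 11, 76860859 to 77026797, plus strand), which prefers unsaturated long-chain ceramides, read 1475, 1487 and 1681 with NS shRNA and 1444, 1513 and 1314 with shRNA #1. Its groups overlapped, and the log2 fold change of -0.12 (95% interval -0.29 to 0.05, limma adjusted p = 0.178) did not pass the test. With shRNA #2 it read 2072, 2046 and 1778 against 1591, 1614 and 1813, again with overlap, and was called higher (0.23, SE 0.08, limma adjusted p = 0.0246). This call was lost when NS shRNA replicate 1 or 2 or shRNA #2 replicate 1 or 2 was left out (adjusted p 0.0681 to 0.105).

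ACER2 (chromosome 9, 19409009 to 19452505, plus strand), the Golgi ceramidase, was the least abundant of the 3, with 9 to 33 reads in any library. It read 18.8, 26.5 and 30.5 normalized counts with NS shRNA and 18.7, 24.1 and 13.5 with shRNA #1, and the 2 groups overlapped. A fall was not detectable at this depth (-0.42, 95% interval -1.09 to 0.25, limma adjusted p = 0.236). With shRNA #2 the values of 9.70, 12.6 and 10.1 lay below all NS shRNA values of 20.3, 28.8 and 32.9, and ACER2 fell to 39.6% (-1.24, SE 0.30, limma adjusted p = 0.00402). Per kilobase of annotated exons, ASAH1 stood at 4.37 ± 0.291 times ACER3 within the NS shRNA libraries (SD, n = 3), at 1.41 ± 0.120 times with shRNA #1 and at 0.600 ± 0.0399 times with shRNA #2, with no overlap between any groups (2-sided exact permutation test against NS shRNA, p = 0.1, the smallest that 3 libraries against 3 allow). With the length of the Ensembl canonical transcript of each gene the ratio was 7.68 ± 0.511, 2.47 ± 0.210 and 1.05 ± 0.0700, so whether ASAH1 lay below ACER3 with shRNA #2 depends on the length used, and the change from NS shRNA does not.

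The 2 sphingosine kinases moved apart. SPHK1 (chromosome 17, 76376584 to 76387860, plus strand), the mainly cytosolic kinase that is often raised in tumors, read 478, 457 and 330 with NS shRNA and 1587, 1755 and 2120 with shRNA #1. On the scale of the other table it read 516, 496 and 355 with NS shRNA and 925, 639 and 921 with shRNA #2. All 6 knockdown libraries lay above all NS shRNA libraries of their table. SPHK1 rose 4.32-fold with shRNA #1 (log2 fold change 2.12, SE 0.15, limma adjusted p = 1.83e-06) and 1.82-fold with shRNA #2 (0.86, SE 0.17, limma adjusted p = 0.00101). It was the largest rise among the 10 genes with each hairpin, and its libraries also varied widely within a group, with NS shRNA replicate 3 and shRNA #2 replicate 2 lowest.

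SPHK2 (chromosome 19, 48619291 to 48630717, plus strand), the kinase found in the nucleus and at mitochondria, read 1338, 1199 and 1192 with NS shRNA and 858, 925 and 938 with shRNA #1. With shRNA #2 it read 773, 693 and 736 against 1443, 1302 and 1285. Both knockdown groups lay below NS shRNA with no overlap. SPHK2 fell to 73.0% with shRNA #1 (-0.45, SE 0.07, limma adjusted p = 0.000273) and to 54.6% with shRNA #2 (-0.87, SE 0.08, limma adjusted p = 3.19e-06). Exons of SPHK2 share 661 bases with the gene DBP on the opposite strand, and the authors counted reads by strand.

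The order of the 2 kinases within a library was exchanged. The ratio of SPHK1 to SPHK2 per kilobase of annotated exons was 0.487, 0.519 and 0.376 with NS shRNA, 2.52, 2.58 and 3.08 with shRNA #1 and 1.63, 1.26 and 1.70 with shRNA #2. SPHK2 thus exceeded SPHK1 in each NS shRNA library and SPHK1 exceeded SPHK2 in each knockdown library, also with the length of the Ensembl canonical transcript in place of all exons. This was 5.91 times that of NS shRNA with shRNA #1 and 3.32 times with shRNA #2 (2-sided exact permutation test, p = 0.1 each, the smallest possible).

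**Figure D2:**
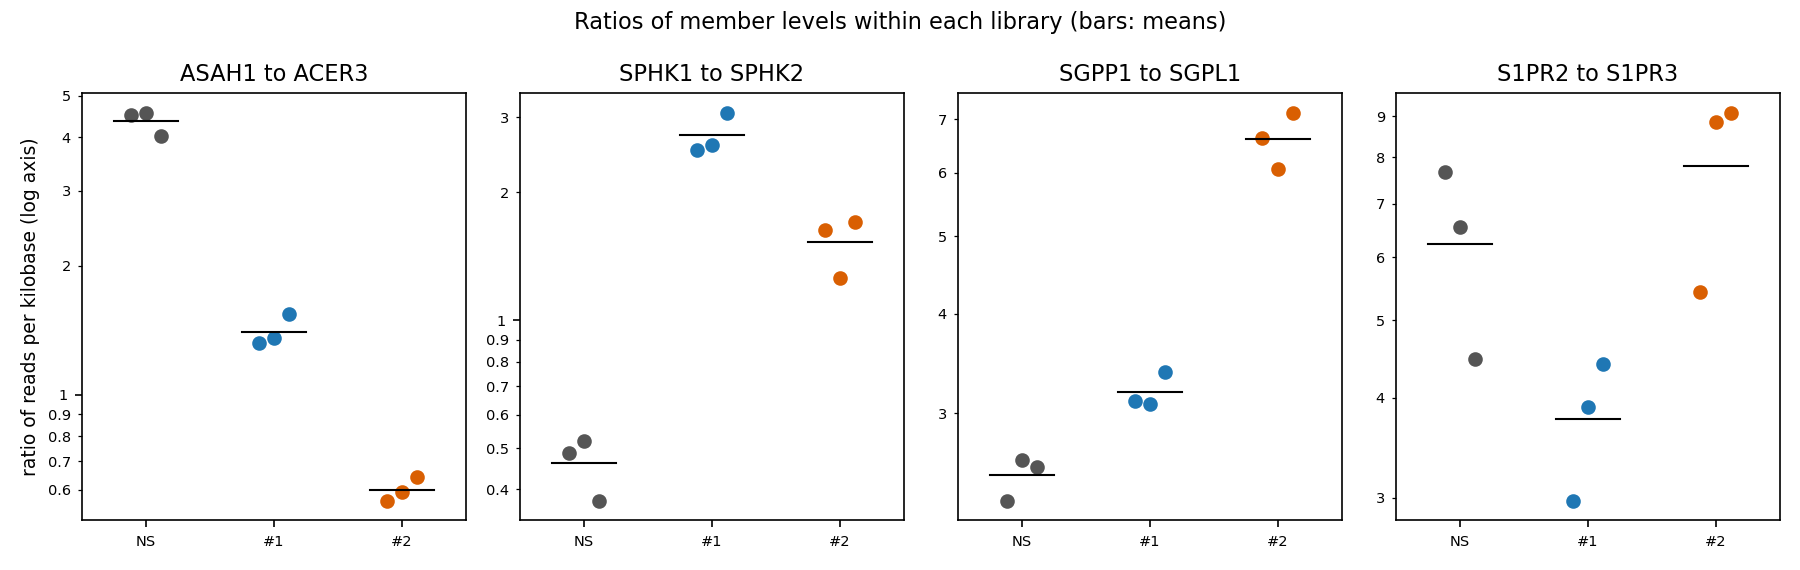
Ratios of reads per kilobase of annotated exons between pairs of genes within each library (points; y axes logarithmic, bars at the mean of 3 libraries) with NS shRNA (grey), ASAH1 shRNA #1 (blue) and #2 (orange). The ratio of SPHK1 to SPHK2 lay below 1 in the 3 NS shRNA libraries and between 1.26 and 3.08 in the 6 knockdown libraries, and the ratio of SGPP1 to SGPL1 was highest with shRNA #2.

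Sequence before the start sites of the genes that rose and fell is shown for comparison, from RefSeq (GRCh38.p14). For 7 of the 10 genes, 11 windows of 250 bases before a start were found, and the stretches below are parts of these windows that lie outside annotated exons. ASAH1 was left out of this search, and no window was found for SGPP1 or SPNS2. Capitals mark a GC box (GGGCGG, the core bound by SP1-like factors), an AP-1 site (TGANTCA) or a CRE (TGACGTCA), each searched on both strands. SPHK1 and SPHK2, the kinases that moved apart, are shown first.
SPHK1 start 2, chr17:76384522-76384608, plus strand: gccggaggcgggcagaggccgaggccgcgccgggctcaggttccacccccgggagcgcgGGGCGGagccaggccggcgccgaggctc
SPHK1 start 3, chr17:76385170-76385277, plus strand: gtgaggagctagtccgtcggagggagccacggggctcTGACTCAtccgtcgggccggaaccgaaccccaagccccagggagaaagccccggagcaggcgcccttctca
SPHK2 start 2, chr19:48624856-48624951, plus strand: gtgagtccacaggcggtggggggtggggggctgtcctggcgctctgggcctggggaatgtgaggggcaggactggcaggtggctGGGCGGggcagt
The 250 bases before start 3 of SPHK1 held 1 AP-1 site, 71 bases upstream, and no GC box, and those before start 2 held 2 GC boxes, 149 and 28 bases upstream. Before start 1 of SPHK1 there was 1 GC box, 164 bases upstream, in a window with 227 of its 250 bases in annotated exons. That GC box and the one 149 bases before start 2 of SPHK1 lie within exons. Before start 2 of SPHK2 there was 1 GC box, 89 bases upstream, and the window before its start 1 held none of the motifs searched. Of 35116 windows of the same length over all genes, 6.57% held an AP-1 site and 42.6% a GC box, and a match is a description of the letters and not of a bound factor.

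S1P is removed by cleavage, through SGPL1, or by dephosphorylation, through SGPP1 among others. SGPL1 (chromosome 10, 70815905 to 70895816, plus strand), the lyase at the only exit of the pathway, read 3537, 3427 and 3540 with NS shRNA and 2508, 2570 and 2370 with shRNA #1. It read 1821, 1859 and 1669 with shRNA #2 against 3817, 3720 and 3817. No knockdown library reached an NS shRNA library. SGPL1 fell to 70.9% with shRNA #1 (-0.50, SE 0.05, limma adjusted p = 1.89e-05) and to 47.1% with shRNA #2 (-1.09, SE 0.06, limma adjusted p = 1.71e-07). Exons of SGPL1 share 815 bases, 7.06% of its exon bases, with a long noncoding RNA on the same strand. That RNA is not among the genes listed. The window before its start, of which the part outside exons is given here as that of a gene that fell with both hairpins, held 1 GC box, 174 bases upstream, and no AP-1 site or CRE.
SGPL1, chr10:70815698-70815904, plus strand: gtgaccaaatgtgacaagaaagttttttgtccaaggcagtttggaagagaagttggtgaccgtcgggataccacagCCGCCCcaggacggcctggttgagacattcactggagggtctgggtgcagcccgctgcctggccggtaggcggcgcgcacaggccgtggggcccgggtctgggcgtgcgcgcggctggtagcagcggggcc

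SGPP1 (chromosome 14, 63684216 to 63728065, minus strand), the phosphatase of the endoplasmic reticulum, read 2384, 2600 and 2627 with NS shRNA and 2250, 2285 and 2314 with shRNA #1. With shRNA #2 it read 3487, 3259 and 3438 against 2573, 2822 and 2832. The shRNA #1 libraries all lay below NS shRNA and the shRNA #2 libraries all above it. SGPP1 fell to 90.0% with shRNA #1 (-0.15, SE 0.05, limma adjusted p = 0.0313) and rose 1.24-fold with shRNA #2 (0.31, SE 0.06, limma adjusted p = 0.00111). The fall was small and its call was lost when NS shRNA replicate 2 or 3 or shRNA #1 replicate 1 or 2 was left out (adjusted p 0.0807 to 0.107).

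Within a library, the ratio of SGPP1 to SGPL1 per kilobase of exons was 2.33 to 2.63 with NS shRNA, 3.08 to 3.38 with shRNA #1 and 6.07 to 7.13 with shRNA #2. With canonical transcripts it was 1.17 to 1.31, 1.54 to 1.69 and 3.04 to 3.57. The 3 groups did not overlap on either length. Against NS shRNA the ratio was 1.27 times as high with shRNA #1 and 2.63 times with shRNA #2 (2-sided exact permutation test, p = 0.1 each, the smallest possible). SGPL1 was lower with both hairpins, whereas SGPP1 was higher with shRNA #2 and slightly lower with shRNA #1.

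SPNS2 (chromosome 17, 4498881 to 4539035, plus strand), which carries S1P out of the cell, showed the second largest fall among the 10 genes, after ASAH1. It read 197, 171 and 183 with NS shRNA and 128, 85.9 and 80.7 with shRNA #1, and 212, 185 and 197 against 56.1, 49.6 and 36.5 with shRNA #2. The groups did not overlap in either table, and shRNA #1 replicate 1 was the highest knockdown library. SPNS2 fell to 53.6% with shRNA #1 (-0.92, SE 0.17, limma adjusted p = 0.00112) and to 23.9% with shRNA #2 (-2.06, SE 0.17, limma adjusted p = 2.59e-06).

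The 2 receptors were called with different hairpins. S1PR3 (chromosome 9, 88990863 to 89005155, plus strand), which couples to several G protein classes, read 113, 101 and 131 with NS shRNA and 211, 178 and 151 with shRNA #1. With shRNA #2 it read 180, 126 and 129 against 122, 110 and 141. It lay above NS shRNA in all 3 shRNA #1 libraries, whereas the shRNA #2 libraries overlapped NS shRNA. S1PR3 rose 1.57-fold with shRNA #1 (0.64, SE 0.15, limma adjusted p = 0.00432), and with shRNA #2 its log2 fold change was 0.21 (95% interval -0.16 to 0.58, limma adjusted p = 0.287). S1PR2 (chromosome 19, 10221433 to 10231331, minus strand), known for its coupling to G12 and G13 proteins, read 230, 176 and 156 with NS shRNA and 167, 185 and 177 with shRNA #1, which lay within the range of NS shRNA. Its log2 fold change there was -0.07 (95% interval -0.39 to 0.25, limma adjusted p = 0.683) and turned to 0.088 without NS shRNA replicate 1. With shRNA #2 the values of 260, 297 and 311 all lay above those of NS shRNA, 248, 191 and 168, and S1PR2 rose 1.43-fold (0.53, SE 0.15, limma adjusted p = 0.00816). Exons of S1PR2 share 83 bases on the same strand with DNMT1, which is 2.28% of the exon bases of S1PR2. DNMT1 held up to 17619 reads in a library and S1PR2 at most 401, and the part of this overlap in the S1PR2 values was not tested. The ratio of S1PR2 to S1PR3 per kilobase of exons was 7.66, 6.54 and 4.48 with NS shRNA and 2.98, 3.90 and 4.41 with shRNA #1, with no overlap and at 0.604 times the NS shRNA mean (2-sided exact permutation test, p = 0.1, the smallest possible). With shRNA #2 it was 5.43, 8.85 and 9.09, which overlapped NS shRNA (p = 0.3 by the same exact test). With canonical transcripts the ratio was lower throughout, at 2.42, 2.07 and 1.41 with NS shRNA, 0.940, 1.23 and 1.39 with shRNA #1 and 1.72 to 2.87 with shRNA #2, so that S1PR3 exceeded S1PR2 in 1 shRNA #1 library.

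The upstream stretches of the 2 receptor genes are given because their calls went with different hairpins.
S1PR2, chr19:10231332-10231581, minus strand: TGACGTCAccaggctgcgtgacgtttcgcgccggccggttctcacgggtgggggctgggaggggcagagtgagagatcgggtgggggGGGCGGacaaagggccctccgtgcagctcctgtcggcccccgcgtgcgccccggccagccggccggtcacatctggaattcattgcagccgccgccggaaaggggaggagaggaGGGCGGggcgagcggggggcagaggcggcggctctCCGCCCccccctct
S1PR3 start 2, chr9:88991242-88991467, plus strand: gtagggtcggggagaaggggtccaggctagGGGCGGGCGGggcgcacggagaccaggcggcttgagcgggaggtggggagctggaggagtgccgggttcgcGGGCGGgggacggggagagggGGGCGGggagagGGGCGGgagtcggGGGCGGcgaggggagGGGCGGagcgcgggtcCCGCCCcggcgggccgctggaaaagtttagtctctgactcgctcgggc
The S1PR2 window held 3 GC boxes and a CRE at its first base, 250 bases upstream, and 1.65% of all windows held a CRE. The window before start 2 of S1PR3 held 8 GC boxes, 2 of which overlap each other, and the window before start 1 held none of the motifs searched. A GC box thus stood before genes that rose and before genes that fell.

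The hairpins were then compared with each other on reads recovered from both tables, where 63.9% of 14381 genes were called, 31.4% higher and 32.5% lower with shRNA #2. All 10 pathway genes were called, 3 higher and 7 lower with shRNA #2, with a median log2 ratio of -0.52 against -0.0046 over all genes. The target ASAH1 is among the 10, which were chosen with results known, so this count and median are no result about them. The 4 genes that fell with both hairpins were each lower with shRNA #2 than with shRNA #1. The log2 ratio was -0.89 for ASAH1 (edgeR adjusted p = 6.84e-08), -0.43 for SPHK2 (edgeR adjusted p = 0.000185), -0.60 for SGPL1 (edgeR adjusted p = 2.49e-06) and -1.17 for SPNS2 (edgeR adjusted p = 0.000523). SPHK1 rose with both hairpins, and its log2 ratio of shRNA #2 over shRNA #1 was -1.26 (SE 0.16, edgeR adjusted p = 3.82e-05). ASAH1 was thus lowest with shRNA #2, and SPHK1 was highest with shRNA #1.

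SGPP1 was higher with shRNA #2 than with shRNA #1, at a log2 ratio of 0.45 (SE 0.05, edgeR adjusted p = 1.64e-05), as were S1PR2 (0.59, SE 0.14, edgeR adjusted p = 0.00294) and ACER3 (0.34, SE 0.08, edgeR adjusted p = 0.00259). ACER2 (-0.93, SE 0.32, edgeR adjusted p = 0.0236) and S1PR3 (-0.44, SE 0.17, edgeR adjusted p = 0.0420) were lower. The ACER2 call was lost without shRNA #1 replicate 2 or without shRNA #2 replicate 1 or 3 (edgeR adjusted p 0.0631 to 0.138), and by DESeq2 (adjusted p = 0.0508). The S1PR3 call was lost without NS shRNA replicate 1, shRNA #1 replicate 1 or 2, or shRNA #2 replicate 2 or 3 (edgeR adjusted p 0.0560 to 0.135).

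**Figure D3:**
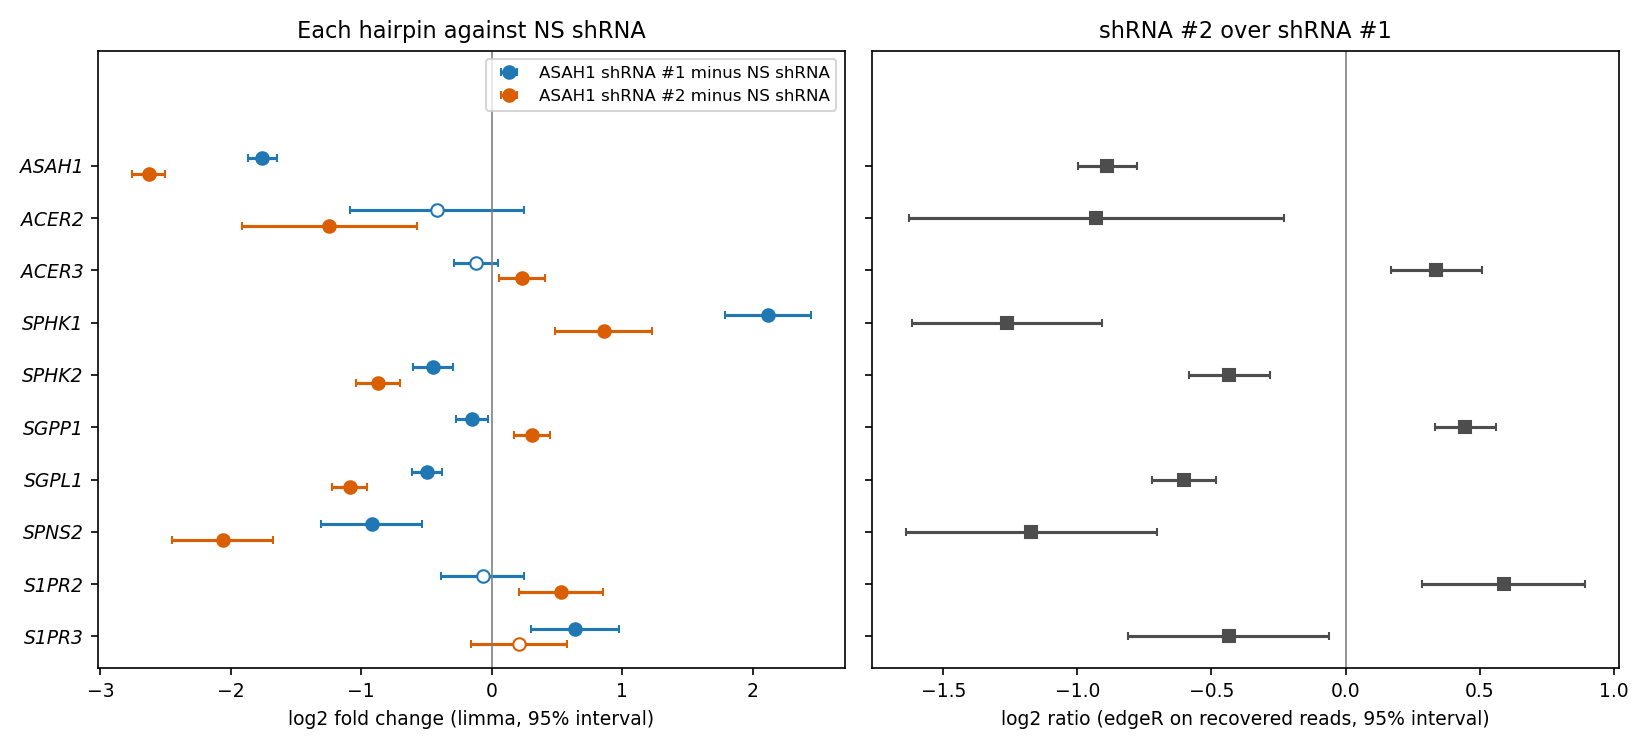
Log2 fold changes of the 10 genes against NS shRNA (left, limma, with 95% intervals; shRNA #1 blue, shRNA #2 orange) and log2 ratios of shRNA #2 over shRNA #1 (right, edgeR), with filled symbols for an adjusted p below 0.05. SPHK1 lies right of 0 with both hairpins, SGPP1 lies on opposite sides, and all 10 ratios between the hairpins have intervals that leave out 0.

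Levels of different genes were compared as reads per kilobase of annotated exons, scaled to the reads on genes of the library (RPKM). In NS shRNA cells the order was SGPP1 (23.5 ± 1.31, SD, n = 3), SGPL1 (9.38 ± 0.178), ASAH1 (9.03 ± 0.122), SPHK2 (6.40 ± 0.401), SPHK1 (2.95 ± 0.555), ACER3 (2.07 ± 0.163), S1PR2 (1.59 ± 0.321), SPNS2 (1.40 ± 0.0962), ACER2 (0.282 ± 0.0670) and S1PR3 (0.260 ± 0.0348). The ranges of S1PR2 and SPNS2 overlapped, as did those of ACER2 and S1PR3, and no other neighbours overlapped. This order depends on the length used, because all annotated exons of ASAH1 add up to 15378 bases and its canonical transcript to 2779. With canonical transcript lengths ASAH1 was highest at 49.99 ± 0.675, above SGPP1 at 23.5, and the places of SPHK1 and ACER3 overlapped. On all exons SPHK1 reached 12.9 ± 1.90 RPKM with shRNA #1, below SGPP1 at 21.4 ± 0.247. With canonical transcripts SPHK1 stood above SGPP1 there, at 31.4 ± 4.63 and with no overlap, and with the longest transcripts, at 22.8 ± 3.36, the ranges of the 2 genes overlapped. SPNS2 stood at 0.304 ± 0.0645 on all exons with shRNA #2.

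**Figure D4:**
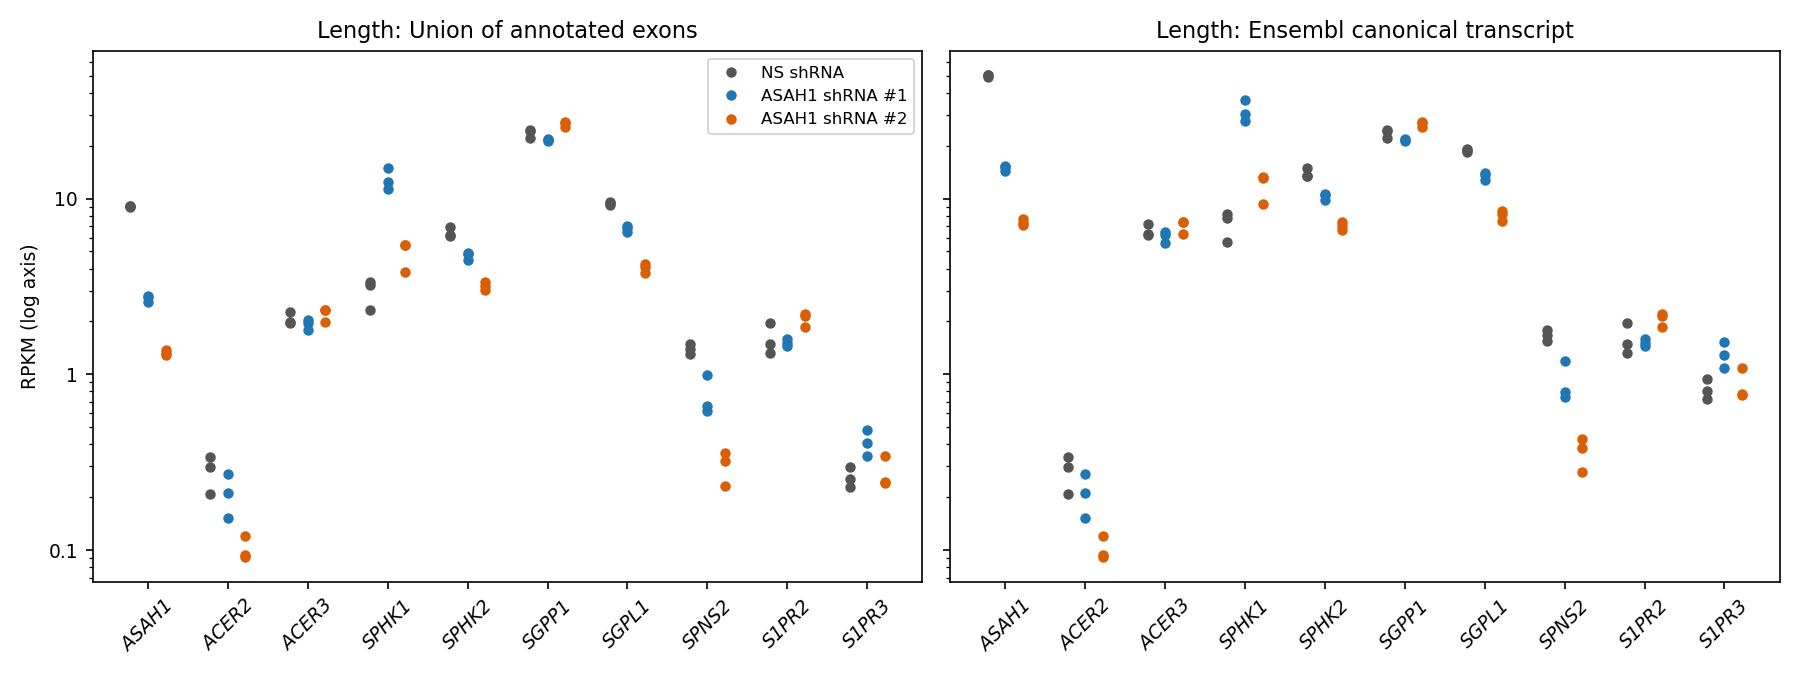
RPKM of the 10 genes in each library (points; logarithmic y axes) with NS shRNA (grey), ASAH1 shRNA #1 (blue) and #2 (orange), using all annotated exons (left) or the canonical transcript (right) as length. ASAH1 in NS shRNA cells is at 9.03 on the left and 49.99 on the right, while SGPP1, with 1 annotated transcript, is at 23.5 in both.

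Across the 9 libraries, the gene whose pattern was most like ASAH1 among the 10 was SPHK2 (Pearson r = 0.968 on log2 CPM), SPHK2 was most like SGPL1 (0.971), and SGPL1 and SPNS2 were most like each other (0.976). SPHK1 was most like S1PR3 (0.744) and SGPP1 was most like ACER3 (0.843). Among 11631 genes with a mean of at least 100 reads, SLCO4A1-AS1, GALNT5, SEC24C, RASD2 and DAP were most like ASAH1 (0.995 to 0.997). These values describe 9 libraries of 3 groups, so they mostly rank genes by their group means, and they carry no test.

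Of 14 other genes of ceramide hydrolysis and S1P handling, 9 were tested with shRNA #1, of which 7 fell and 0 rose, and 10 with shRNA #2, of which 5 fell and 2 rose. SGPP2 is among the 2 that rose, and it passed the filter only through its values with shRNA #2. S1PR4 and S1PR5 are among those that fell with each hairpin, and they passed the filter only through their NS shRNA values. ACER1, ASAH2, ASAH2B and MFSD2B were too low to test in either comparison. Of all genes, 66.1% were called with shRNA #1, 32.8% higher and 33.3% lower, and 66.9% with shRNA #2, 33.5% higher and 33.4% lower. The median log2 fold changes of the list were -0.48 and -0.22, against 0.0013 and 0.013 over all genes. ALDH3A2, the aldehyde dehydrogenase that takes up the product of the lyase, fell from 2890, 3028 and 2808 to 928, 1011 and 1011 with shRNA #1 (-1.56, SE 0.06, limma adjusted p = 4.41e-08). It fell from 3118, 3286 and 3027 to 1492, 1568 and 1630 with shRNA #2 (-1.01, SE 0.06, limma adjusted p = 3.16e-07). NAAA, an acid amidase related to acid ceramidase, fell by 0.36 with shRNA #1 and by 0.88 with shRNA #2 on the log2 scale (limma adjusted p = 0.000725 and 2.43e-06).

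Of the other S1P receptors, S1PR4 and S1PR5 were called lower with both hairpins and S1PR1 was called with neither. S1PR5 read 49.2, 59.9 and 55.4 with NS shRNA and 6.69, 6.43 and 13.5 with shRNA #1, and 53.1, 65.0 and 59.7 against 7.55, 13.6 and 8.53 with shRNA #2. It was down to 16.2% and 16.7% of NS shRNA with no overlap, with limma adjusted p = 5.59e-05 and 1.84e-05. S1PR4, at 17.0 ± 4.04 normalized counts (SD, n = 3) with NS shRNA, fell with both hairpins (-0.93 and -1.90, limma adjusted p = 0.0309 and 0.00392), and the first of these calls was lost without NS shRNA replicate 1 or 2 or shRNA #1 replicate 1 or 2 (adjusted p 0.0548 to 0.114). That call was also lost by DESeq2 (adjusted p = 0.0870), in 1 limma fit of all 9 libraries (0.0720) and in limma with the replicate number as a block (0.0643). S1PR1, named after its values were seen to complete the receptor family, had log2 fold changes of 0.06 (95% interval -0.22 to 0.34) and -0.05 (-0.38 to 0.27), neither called. Hence, of the 5 receptor genes, 2 were called lower with both hairpins, and S1PR2 and S1PR3 rose with 1 hairpin each. S1PR4 averaged 8.43 and 4.60 normalized counts with shRNA #1 and #2, and S1PR5 8.85 and 9.90, below the filter of 10. Both genes thus passed the filter only through the NS shRNA libraries. Their knockdown libraries held as few as 2 reads for S1PR4 and 5 for S1PR5. The fall of S1PR4 with shRNA #1 rests on a call that several refits lost. PPAP2B, which encodes the lipid phosphatase PLPP3, fell with shRNA #1 (-0.62, SE 0.07, limma adjusted p = 6.26e-05) and rose with shRNA #2 (0.31, SE 0.08, limma adjusted p = 0.00417). SGPP2, the second S1P phosphatase, was also named after its values were seen: it read 4.52, 2.13 and 1.00 with NS shRNA and 19.4, 27.2 and 13.2 with shRNA #2, and it was too low to test with shRNA #1. With shRNA #2 it passed the filter only through the libraries where it was high. Only a rise could therefore be called, and no p-value is given.

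Among 8 lysosomal genes that make ceramide available to acid ceramidase, 5 passed with shRNA #1, 4 lower and 1 higher, and 4 passed with shRNA #2, all of them lower. Their median log2 fold changes were -0.16 and -0.29, against 0.0013 and 0.013 over all genes. Of all genes, 66.1% passed with shRNA #1, 33.3% lower, and 66.9% with shRNA #2, 33.4% lower. SMPD1, acid sphingomyelinase, which releases ceramide from sphingomyelin, fell with both (-0.65, SE 0.05 and -1.21, SE 0.06, limma adjusted p = 6.14e-06 and 1.07e-07). GM2A, the activator protein of ganglioside breakdown, fell as well (-0.64 and -0.97, limma adjusted p = 9.22e-06 and 1.88e-06). PSAP, the precursor of the saposins, was lower with both hairpins (-0.18 and -0.44, limma adjusted p = 0.0120 and 7.35e-05), though the first call was lost without NS shRNA replicate 2 or shRNA #1 replicate 1 (adjusted p 0.0535 to 0.0541).

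Of 14 genes that couple S1P receptors to the cell, 13 were tested and PLCB1 was too low. With shRNA #1, 2 rose and 6 fell, and with shRNA #2, 5 rose and 4 fell, with medians of -0.11 and 0.077. ROCK1, a kinase that raises actomyosin contractility, rose with both (0.38, SE 0.08 and 0.59, SE 0.08, limma adjusted p = 0.00180 and 9.10e-05). In contrast, PLCB3, a phospholipase C downstream of Gq proteins, fell with both (-0.55 and -0.37, limma adjusted p = 1.74e-05 and 0.000346), as did GNAI2, a Gi subunit (-0.41 and -0.34, limma adjusted p = 2.56e-05 and 0.000149), and ARHGEF1, a guanine nucleotide exchange factor (-0.37 and -0.35, limma adjusted p = 0.000310 and 0.000403). GNA12, the G12 subunit to which S1PR2 couples, fell with shRNA #1 (-0.30, SE 0.05, limma adjusted p = 0.000302) and rose with shRNA #2 (0.25, SE 0.05, limma adjusted p = 0.00157). GNA13, the G13 subunit, was called higher with both hairpins (0.21 and 0.28, SE 0.07 each, limma adjusted p = 0.0248 and 0.00593). The first GNA13 call was lost without NS shRNA replicate 1 or 2 or shRNA #1 replicate 1 or 2 (adjusted p 0.0553 to 0.0925). It was also lost in limma without the trend (adjusted p = 0.0699) and with the replicate number as a block (0.0618). Of all genes, 66.1% were called with shRNA #1, 32.8% higher and 33.3% lower, and 66.9% with shRNA #2, 33.5% higher and 33.4% lower. The medians over all genes were 0.0013 and 0.013. The 3 lists are short and were chosen with results known, so their counts and medians are no result about them.

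**Figure D5:**
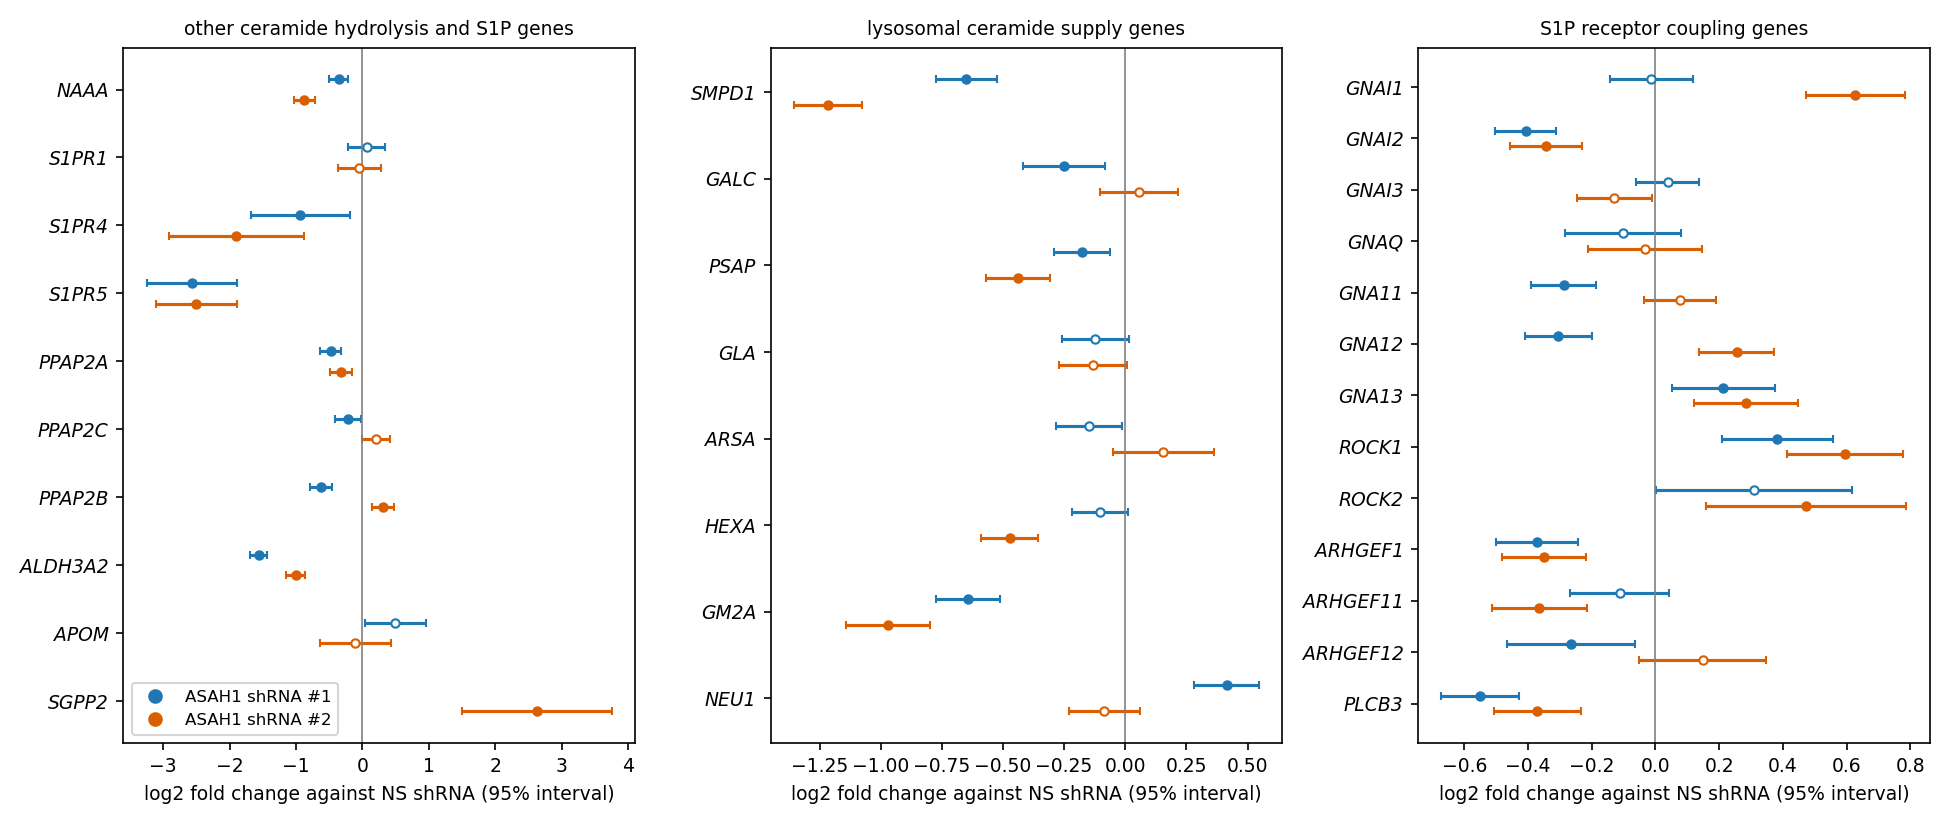
Log2 fold changes against NS shRNA (x axis, limma, with 95% intervals) of tested genes of ceramide hydrolysis and S1P handling (left), lysosomal ceramide supply (middle) and S1P receptor coupling (right), with shRNA #1 in blue, shRNA #2 in orange and filled points for an adjusted p below 0.05. S1PR5 and ALDH3A2 lie far left of 0 with both hairpins, and PPAP2B and GNA12 are called on opposite sides.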

How the data were processed

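The 9 libraries fall into 3 groups of 3. Per the labels, mRNA was selected with oligo-dT beads and made into strand-specific libraries, while the series' design text names ribosomal RNA depletion. Reads were trimmed (Trimmomatic 0.36), aligned to hg38 (STAR 2.7.1a) and counted by strand on UCSC genes (HTSeq) by the authors, who ran DESeq2 1.28 once per hairpin. Their deposited tables hold, for 26485 genes, a normalized signal per library, that is a count over a size factor, and its mean. The deposited log2 fold changes with their errors, Wald score and p-values come from the authors' own comparisons and were not used. Whole reads were recovered from every value (100% within 0.01 of a whole number). All per-sample columns matched a library.

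Each hairpin was compared with NS shRNA in limma 3.58.1 (log2(value + 1), intensity trend, 2-sided). Genes needed a mean of 10, and p-values were adjusted by Benjamini-Hochberg at 0.05. A fold change on this scale understates that of low genes. The hairpins were compared by edgeR 4.0.16 (quasi-likelihood, TMM, recovered reads). As alternatives, the pseudocount was 0.1 or 5, the filter was dropped or set to 50, the trend was dropped, libraries were scaled to the same upper quartile, edgeR or DESeq2 1.42.0 was used on reads, all libraries were fitted together, replicate numbers were blocked, and each library was left out. Levels used all annotated exons, the longest transcript or, added after the values were seen, the canonical transcript. The scripts were tested on simulated data in which few genes changed, so scaling with most genes changed was not tested. R 4.3.3, Python 3.11.15, GENCODE v44 (the files name hg38) and RefSeq GRCh38.p14 were used. The 10 genes, the gene lists and the tests were chosen with earlier results of these data known. In the other lists, values are given for up to 4 genes per list and hairpin with the largest change among those called with both hairpins, in the same or opposite directions. GNA12, GNA13, S1PR1 and SGPP2 are given outside this rule. Some genes of these lists are not reported here, and they enter none of the lists' counts or medians. Libraries of a group differed by a chi-square per gene of 5.26 to 23.2, so none was a copy. The labels name no batch.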

Additional observations from a re-analysis of the deposited data

Results flagged for a closer look

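For all 10 genes, a difference was called when shRNA #2 was tested against shRNA #1 by edgeR. The calls of ACER2 and S1PR3 were lost in some of the refits. The log2 ratio of shRNA #2 over shRNA #1 was -1.26 for SPHK1, -1.17 for SPNS2, -0.93 for ACER2, -0.89 for ASAH1, -0.60 for SGPL1, -0.44 for S1PR3 and -0.43 for SPHK2. It was 0.34 for ACER3, 0.45 for SGPP1 and 0.59 for S1PR2. The adjusted p ran from 6.84e-08 for ASAH1 to 0.0420 for S1PR3, and 63.9% of all genes differed in the same way. SGPP1 was the one member called in opposite directions against NS shRNA.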

How the results depend on the processing

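The counts of genes called stayed within 1.5 times their value under every alternative run. Of the 10 genes, 6 to 7 were called with shRNA #1, 8 to 9 with shRNA #2 and 8 to 10 between the hairpins, and ASAH1 kept its direction and call in each. The 444 of 467 refits of single pathway members that kept direction and call left 22 that lost the call and 1 that reversed. The lost calls were those of SGPP1 with shRNA #1, ACER3 with shRNA #2, and ACER2 and S1PR3 between the hairpins, and the cause was not tested. The ACER3 call was also lost with upper quartile scaling (adjusted p = 0.0592) and, like that of SGPP1 (0.0567), in limma without the trend (0.0609), and both were lost with the replicate number as a block (0.0725 and 0.0955). Reversals came from leaving out 1 library, in genes that had not been called. With shRNA #1, the log2 fold change then ran from -0.19 to 0.088 for S1PR2, from -0.049 to 0.019 for GNAI1 and from -0.024 to 0.16 for S1PR1. With shRNA #2, it ran from -0.013 to 0.11 for GALC, from -0.094 to 0.028 for GNAQ and from -0.19 to 0.067 for S1PR1. Replicate numbers were not taken to pair the libraries: same-numbered NS shRNA and knockdown libraries deviated oppositely (r -0.60 to -0.13), and those of the 2 hairpins weakly together (0.074, 0.23 and 0.44), where differently numbered ones ran from -0.35 to 0.18. With the replicate number as a block, 6, 8 and 10 of the 10 genes and 8237, 8526 and 8590 of all genes were called in the 3 comparisons. Depth limited ACER2 most, with at most 33 reads in a library.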
